A study of Mus musculus with 12 samples.

Results

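Collagens, laminins and the other core proteins of the extracellular matrix were followed by their RNA in whole mouse kidneys. The genes were every collagen chain gene and every laminin chain gene by symbol, together with 18 named matrix genes, among them Fn1, Tnc, Thbs1, Sparc, Lox and Nid1. Of 73 mouse genes that meet this description, 55 had a row in the table of 13124 genes; the other 18, such as Col2a1, Col17a1 and Lum, were not analysed here. All kidneys came from male C57BL/6 mice, had been perfused with saline and were taken 24 h after the operation. In the anti-G-CSFR group (kidneys 7 to 9) and the anti-C5 group (kidneys 10 to 12), mice had unilateral warm renal ischaemia-reperfusion injury (IRI), a period without blood flow followed by its return, and had received an antibody 24 h before it. The antibody was directed against the receptor of granulocyte colony-stimulating factor (G-CSFR, antibody VR81) or against complement protein C5 (antibody BB5.1). In the isotype group (kidneys 4 to 6) mice had the same injury after a control antibody, and in the sham group (kidneys 1 to 3) mice were operated on without ischaemia and were untreated. The comparison of isotype with sham therefore joins the injury with the injection. The labels state neither an age nor which of the 2 kidneys of an IRI mouse was sampled.

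Matrix in the kidney has 2 main forms. Basement membranes, the thin sheets under tubule cells and around capillaries, are built from a collagen IV network and a laminin network that nidogens, perlecan (Hspg2) and agrin (Agrn) tie together. The interstitial matrix between tubules is made of fibrillar collagens such as collagens I, III and V, with fibronectin, elastic fibres and proteoglycans, and it is laid down in excess when a kidney scars. Matricellular proteins such as tenascin-C (Tnc), thrombospondin 1 (Thbs1), periostin (Postn) and SPARC add little to its mechanical strength and act on cells and growth factors.

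Libraries held 13200930 to 16324215 counts. The 55 genes together took 0.243%, 0.261% and 0.379% of the counts in anti-G-CSFR kidneys and 0.305%, 0.428% and 0.233% in anti-C5 kidneys. They took 0.677%, 0.812% and 0.801% in isotype kidneys, against 0.370%, 0.324% and 0.301% in sham kidneys, so every isotype kidney gave matrix genes a larger share than any other kidney. Levels are given as CPM, the counts of a gene over the TMM-scaled library size, and kidneys are always listed in the order of their numbers. Kidneys 4, 9 and 11 stood apart from their groups. Kidneys 9 and 11 held 12395 and 14991 CPM over the 13 injured tubule markers, against 1913 to 2301 CPM in the other 4 antibody-treated IRI kidneys, and kidney 4 held lower levels of several matrix genes than the other isotype kidneys. The markers of working kidney tissue were present in all groups, with all 15 proximal tubule markers and all 12 podocyte markers measured.

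Matrix RNA was higher in most gene groups after injury with isotype antibody than after sham surgery. In isotype against sham, 37 of the 55 genes rose and 9 fell at an adjusted p below 0.05 (edgeR quasi-likelihood test, Benjamini-Hochberg adjustment over all genes). Among all 13124 genes 62.8% were called in this comparison, 32.1% higher and 30.7% lower, so the share called among matrix genes (46 of 55) stood above that of all genes and the calls leaned to the higher side. The median log2 change was 1.10 over the 55 genes and 0.03 over all genes. Of the risers 28 changed more than 2-fold, and of the genes that fell 7 did. In bulk tissue, more cells of a type and more RNA per cell cannot be told apart.

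**Figure D1:**
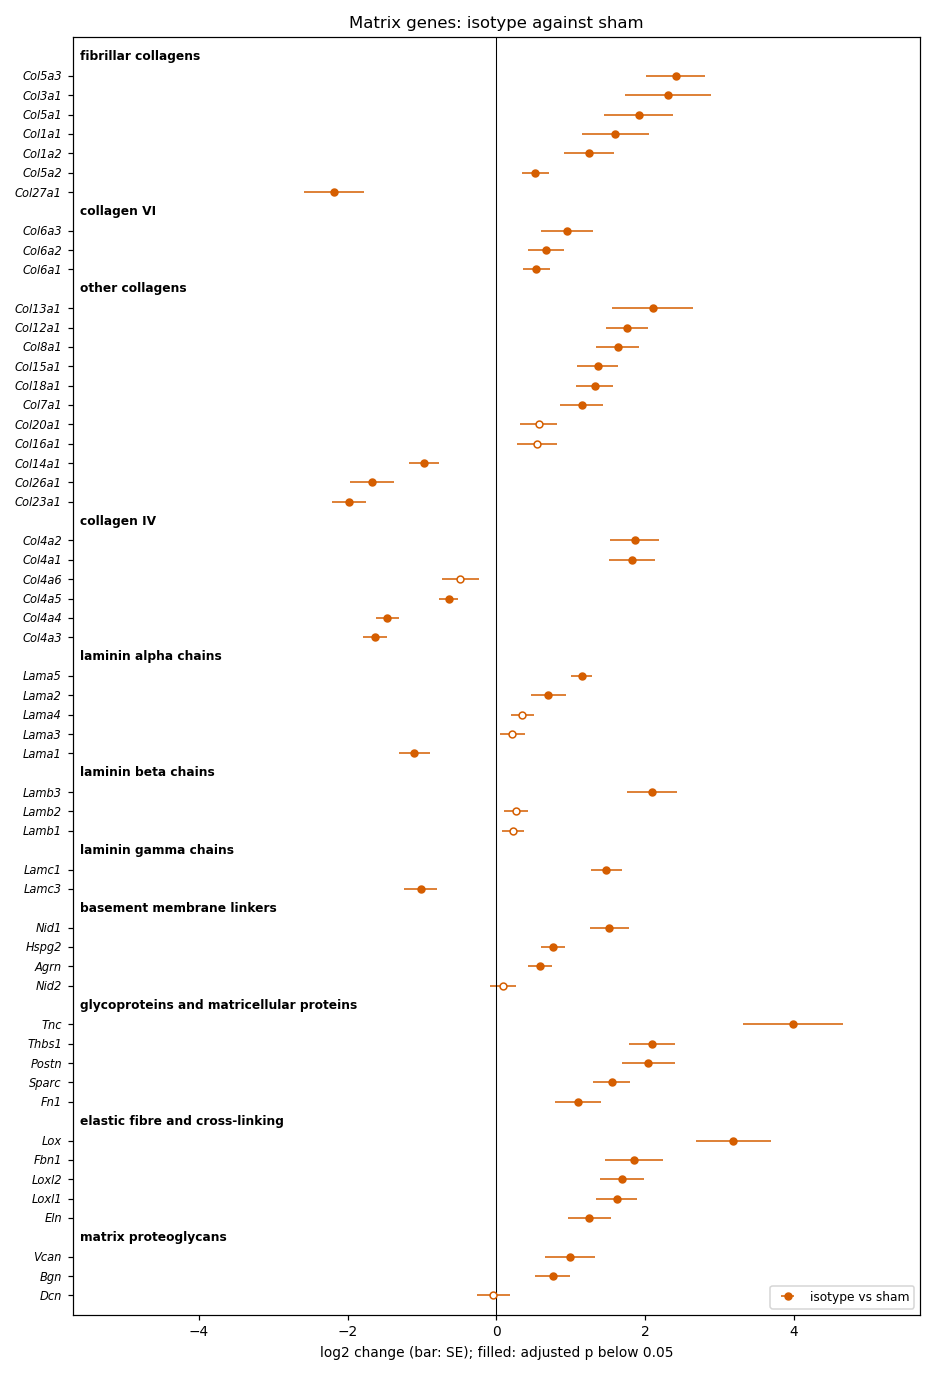
Log2 change of 54 of the 55 matrix genes in isotype against sham kidneys (points, edgeR; bars, SE; 3 kidneys a group), sorted by role, with filled points for an adjusted p below 0.05. Most points lie right of 0, led by Tnc at 3.99 and Lox at 3.19, while Col27a1, Col23a1, Col26a1, Col4a3 and Col4a4 lie farthest to the left.

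The collagen IV chains split in 2 directions. Col4a1 and Col4a2 encode the chains found in all basement membranes, and Col4a3, Col4a4 and Col4a5 encode the chains of the mature glomerular basement membrane, which are mutated in human Alport syndrome. Col4a1 (Entrez 12826, GRCm38 chromosome 8, 11198423 to 11312826) had 209, 273 and 458 CPM in anti-G-CSFR kidneys, 296, 490 and 227 CPM in anti-C5 kidneys, 963, 1328 and 1334 CPM in isotype kidneys and 359, 349 and 317 CPM in sham kidneys. All isotype kidneys lay above all others, and the remaining 3 groups overlapped. Col4a1 rose by 1.82 ± 0.312 on the log2 scale (SE) in isotype against sham, a 3.54-fold difference (edgeR adjusted p = 0.000375). Col4a2, its partner chain, rose by 1.86 ± 0.329 (edgeR adjusted p = 0.000466).

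Col4a3 (Entrez 12828, chromosome 1, 82586921 to 82722059) had the reverse pattern. It stood at 304, 263 and 230 CPM in anti-G-CSFR kidneys, 301, 205 and 250 CPM in anti-C5 kidneys, 105, 134 and 126 CPM in isotype kidneys, and 417, 346 and 364 CPM in sham kidneys. The isotype kidneys were the 3 lowest, the sham kidneys the 3 highest, and both antibody groups lay between them. The log2 change in isotype against sham was −1.63 ± 0.162, or 3.09-fold lower (edgeR adjusted p = 1.10e-05), the smallest adjusted p among the 55 genes. Col4a4, the neighbouring gene, fell by 1.47 ± 0.153 (edgeR adjusted p = 1.36e-05), and Col4a5 fell by 0.64 ± 0.132 (adjusted p = 0.00129). Col4a6, whose chain joins with that of Col4a5 in other basement membranes, averaged 2.61 ± 0.0933 CPM in isotype kidneys and 3.64 ± 0.945 CPM in sham kidneys (SD, n = 3 each) and was not called (log2 change −0.48, adjusted p = 0.102).

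**Figure D2:**
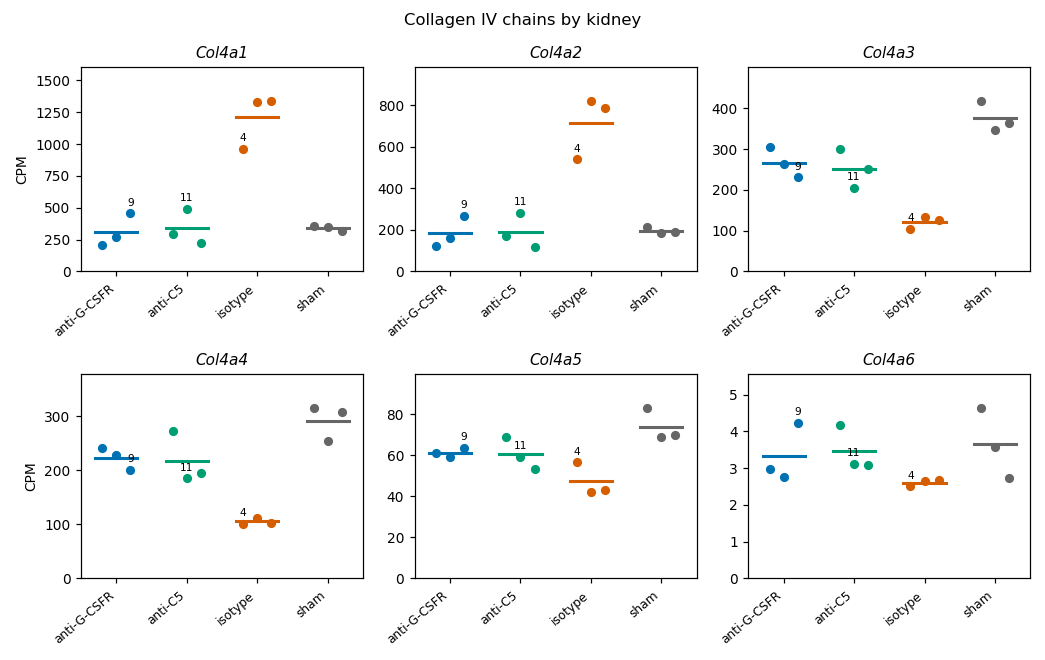
CPM of the 6 collagen IV genes in each kidney, by group (points, 1 kidney each; lines, group means; kidneys 4, 9 and 11 numbered). Isotype kidneys are highest for Col4a1 and Col4a2 and lowest for Col4a3 and Col4a4. Sham kidneys are highest for Col4a3. For Col4a4 the highest anti-C5 kidney (273 CPM) lies above the lowest sham kidney (254 CPM).

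To put the chains on a common scale, levels were divided by exon length (CPM per kilobase, kb). The mean of Col4a1 and Col4a2 over the mean of Col4a3, Col4a4 and Col4a5 was 1.11, 1.61 and 2.96 in anti-G-CSFR kidneys, 1.48, 3.47 and 1.41 in anti-C5 kidneys, 11.1, 15.0 and 15.5 in isotype kidneys and 1.44, 1.63 and 1.40 in sham kidneys. No isotype kidney overlapped with another group. The ratio was 9.20-fold higher in isotype than in sham kidneys (exact permutation test on log2 ratios, two-sided p = 0.1, the smallest that 3 against 3 kidneys allow). It was 7.84-fold lower under anti-G-CSFR and 7.07-fold lower under anti-C5 than under isotype (exact p = 0.1 each). Kidneys 9 and 11 had the highest ratios of their groups. As a ratio of levels per kilobase within each pair of chains, Col4a1 over Col4a2 was between 1.44 and 1.68 and Col4a3 over Col4a4 was between 1.10 and 1.45 in the 12 kidneys. Over the 12 podocyte markers, summed levels were 612 to 776 CPM in anti-G-CSFR kidneys, 583 to 706 in anti-C5 kidneys, 651 to 842 in isotype kidneys and 746 to 777 in sham kidneys. In isotype against sham 3 of these markers were higher and 5 lower (66.7% called, against 62.8% of all genes). Their part in the collagen IV result was not tested.

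Each of these pairs of chains is encoded by neighbouring genes that are read in opposite directions from a shared start region. The Col4a1 and Col4a2 genes overlap by 22 bases at their starts, and the Col4a4 and Col4a3 starts lie 71 bases apart. The stretch between Col4a4 and Col4a3 is shown because the 2 genes that flank it fell side by side, at chr1:82586850-82586920 of GRCm38 (RefSeq sequence, GRCm38.p6, plus strand, which is the sense strand of Col4a3). It holds none of the 4 motifs searched below, so no letter is in capitals.
Col4a4 to Col4a3: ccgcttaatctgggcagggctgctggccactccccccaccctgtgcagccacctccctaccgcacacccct

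Laminins also changed chain by chain. A laminin is a trimer of an alpha, a beta and a gamma chain, and Lamb3 encodes a beta chain and Lama3 an alpha chain of epithelial anchoring laminin. Lamb3 had 4.56, 4.77 and 6.13 CPM in anti-G-CSFR kidneys, 2.82, 10.3 and 4.95 CPM in anti-C5 kidneys, 26.8, 21.6 and 28.7 CPM in isotype kidneys and 6.64, 4.93 and 6.44 CPM in sham kidneys. Isotype kidneys stood clear above every other kidney. Lamb3 was the laminin gene with the largest rise, 2.10 ± 0.337 (edgeR adjusted p = 0.000244). Lama3 was not called in any comparison and averaged 28.7 ± 2.29 CPM in isotype kidneys and 24.7 ± 3.71 CPM in sham kidneys.

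Lamc1 encodes the gamma chain shared by most laminins of the kidney, and Lama5 the main alpha chain of its mature basement membranes. Lamc1 stood at 47.8, 48.9 and 64.2 CPM in anti-G-CSFR kidneys, 61.3, 67.3 and 39.0 CPM in anti-C5 kidneys, 127, 173 and 198 CPM in isotype kidneys, and 64.6, 61.0 and 53.3 CPM in sham kidneys. Lama5 had 84.6, 82.8 and 96.4 CPM in anti-G-CSFR kidneys, 94.9, 100.1 and 78.9 CPM in anti-C5 kidneys, 173, 187 and 211 CPM in isotype kidneys, and 104, 79.7 and 73.8 CPM in sham kidneys. For both genes the isotype kidneys did not overlap with any other group. Lamc1 rose by 1.48 ± 0.210 and Lama5 by 1.15 ± 0.141 in isotype against sham (edgeR adjusted p = 0.000105 and 3.97e-05).

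Other laminin chains fell, missed the threshold or, in the case of Lama2, rose by less. Lama1, an early embryonic alpha chain that persists in tubular basement membranes of the mouse kidney, fell by 1.10 ± 0.210, with 10.2 ± 3.01 CPM in isotype kidneys and 22.0 ± 2.03 CPM in sham kidneys (SD, n = 3 each; edgeR adjusted p = 0.000770). Lamc3 fell by 1.02 ± 0.222 (adjusted p = 0.00186). Lamb1, the most abundant laminin RNA by CPM, had 114, 142 and 155 CPM in anti-G-CSFR kidneys, 143, 147 and 101 CPM in anti-C5 kidneys, 215, 213 and 197 CPM in isotype kidneys and 201, 164 and 171 CPM in sham kidneys. Isotype and sham overlapped for Lamb1, and its log2 change of 0.22 ± 0.154 was not called (edgeR adjusted p = 0.223). Lama4 and Lamb2 were not called either, at 0.35 and 0.26 (adjusted p = 0.0668 and 0.163). Lama2, a chain of muscle and other basement membranes, rose by 0.70 ± 0.235 (adjusted p = 0.0210); leaving out kidney 2, 3, 5 or 6 ended that call (adjusted p = 0.0666 to 0.0892).

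**Figure D3:**
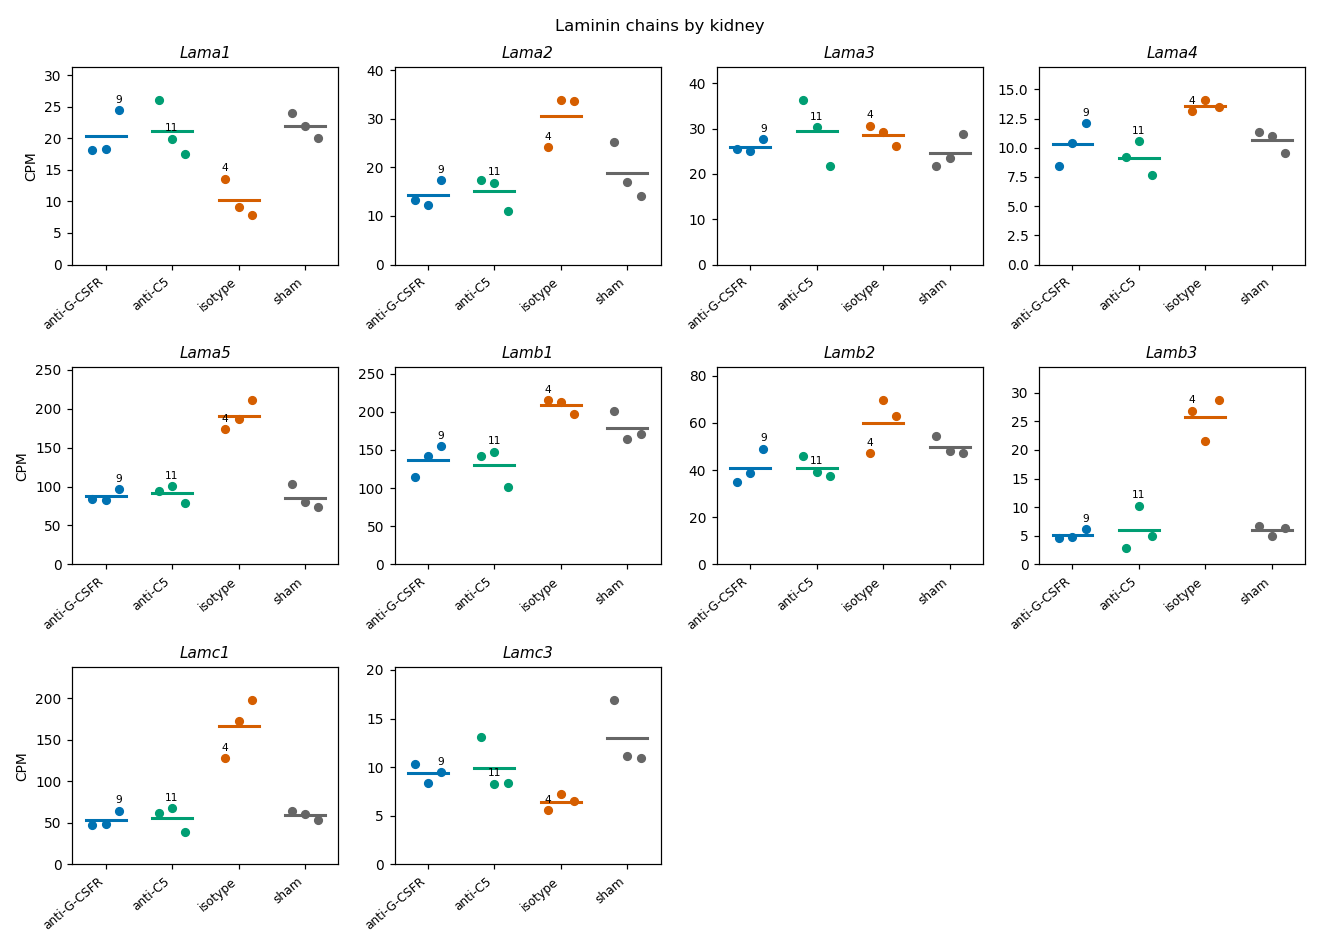
CPM of 10 laminin chain genes in each kidney, by group (points, 1 kidney each; lines, group means; kidneys 4, 9 and 11 numbered). Lama5, Lamb3 and Lamc1 are highest in isotype kidneys, Lama1 and Lamc3 are lowest there, and Lama3 and Lamb1 overlap between isotype and sham.

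Of the proteins that link both networks, Nid1, Hspg2 and Agrn rose and Nid2 was not called. Nid1 (nidogen 1) rose by 1.52 ± 0.265 on the log2 scale (edgeR adjusted p = 0.000425), with 200.3 ± 42.1 CPM in isotype kidneys and 69.9 ± 14.7 CPM in sham kidneys (SD, n = 3 each). Agrn, the linker with the highest CPM, had 138, 132 and 171 CPM in anti-G-CSFR kidneys, 159, 181 and 118 CPM in anti-C5 kidneys, 258, 200.3 and 214 CPM in isotype kidneys, and 156, 151 and 141 CPM in sham kidneys. Isotype kidneys were above all others, though by a smaller distance than for Col4a1. The change of Agrn was 0.58 ± 0.159 and that of Hspg2 0.76 ± 0.165 (edgeR adjusted p = 0.00704 and 0.00175). Nid2 stood at 32.0 ± 6.96 CPM in isotype kidneys and 30.0 ± 4.55 CPM in sham kidneys; 437 of its exon bases (8.45%) are shared with Rtraf on the opposite strand, so its counts are uncertain where the authors' counting did not use strand.

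All 5 of the genes for matricellular proteins and fibronectin were called higher in isotype against sham, where 32.1% of all genes were. Tnc (Entrez 21923, chromosome 4, 63959785 to 64047015) encodes tenascin-C, which is scarce in most adult tissues and appears at sites of injury. It had 3.96, 4.40 and 10.1 CPM in anti-G-CSFR kidneys, 8.11, 39.0 and 3.94 CPM in anti-C5 kidneys, 132, 159 and 129 CPM in isotype kidneys, and 12.9, 6.88 and 6.58 CPM in sham kidneys. No isotype kidney came near another group, and kidney 11 was the only one between. The log2 change was 3.99 ± 0.677, a 15.9-fold difference and the largest of the 55 genes (edgeR adjusted p = 0.000366). Thbs1 (Entrez 21825, chromosome 2, 118111876 to 118127133), whose protein can activate latent TGF-beta, had 54.2, 57.3 and 84.9 CPM in anti-G-CSFR kidneys, 70.1, 105 and 50.3 CPM in anti-C5 kidneys, 204, 436 and 371 CPM in isotype kidneys and 89.7, 73.4 and 73.2 CPM in sham kidneys. Kidney 4 was the lowest isotype kidney for Thbs1 and still stood above all others. Thbs1 rose by 2.10 ± 0.309 (edgeR adjusted p = 0.000134).

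Sparc encodes a collagen-binding protein and had the highest mean level per kilobase in every group, though Col4a1 exceeded it in isotype kidneys 5 and 6. Sparc stood at 159, 216 and 304 CPM in anti-G-CSFR kidneys, 210.1, 350.5 and 219 CPM in anti-C5 kidneys, 602, 608 and 635 CPM in isotype kidneys and 208, 248 and 172 CPM in sham kidneys. Isotype kidneys were close together and far above the rest, and Sparc rose by 1.55 ± 0.248 (edgeR adjusted p = 0.000230). Fn1, fibronectin, had 26.4, 24.2 and 41.1 CPM in anti-G-CSFR kidneys, 37.0, 62.5 and 21.0 CPM in anti-C5 kidneys, 76.0, 77.1 and 86.5 CPM in isotype kidneys and 39.8, 40.5 and 31.2 CPM in sham kidneys. It rose by 1.10 ± 0.310 (edgeR adjusted p = 0.00840). Postn, periostin, had 1.85, 2.16 and 4.24 CPM in anti-G-CSFR kidneys, 1.69, 2.60 and 1.47 CPM in anti-C5 kidneys, 7.55, 16.7 and 15.5 CPM in isotype kidneys and 3.75, 3.37 and 2.47 CPM in sham kidneys, and rose by 2.04 ± 0.361 (edgeR adjusted p = 0.000464). The mean of kidneys 5 and 6 was 2.13 times the Postn level of kidney 4, which was above every sham kidney.

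Among the fibrillar collagens 6 of 7 measured genes rose and Col27a1 fell. Of all genes, 32.1% were called higher and 30.7% lower in isotype against sham. Col3a1 (Entrez 12825, chromosome 1, 45311538 to 45349706) encodes collagen III of the interstitium and vessel walls. It had 39.2, 55.9 and 151 CPM in anti-G-CSFR kidneys, 66.6, 229 and 49.7 CPM in anti-C5 kidneys, 322, 269 and 261 CPM in isotype kidneys and 63.5, 67.8 and 41.3 CPM in sham kidneys. The isotype kidneys were highest, and kidneys 9 and 11 lay well above the others of their groups. Col3a1 rose by 2.30 ± 0.579 in isotype against sham, a 4.94-fold difference (edgeR adjusted p = 0.00448). Col1a1 (Entrez 12842, chromosome 11, 94936224 to 94953042), the main chain of collagen I, had 21.1, 31.8 and 67.9 CPM in anti-G-CSFR kidneys, 34.6, 93.2 and 29.1 CPM in anti-C5 kidneys, 110.2, 101 and 95.0 CPM in isotype kidneys and 38.6, 35.0 and 27.3 CPM in sham kidneys. It rose by 1.60 ± 0.448 (edgeR adjusted p = 0.00818). Kidney 11 lay just below the lowest isotype kidney.

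The collagen V chains, which join collagen I fibrils, rose by 0.53 (Col5a2) to 2.41 (Col5a3) on the log2 scale. Col5a3 had 2.25, 2.39 and 3.86 CPM in anti-G-CSFR kidneys, 3.17, 6.94 and 1.70 CPM in anti-C5 kidneys, 12.7, 11.5 and 11.0 CPM in isotype kidneys and 2.68, 1.95 and 1.99 CPM in sham kidneys (isotype against sham 2.41 ± 0.396, edgeR adjusted p = 0.000284). The call of Col5a2 was lost without kidney 1, 2, 5 or 6 (adjusted p = 0.0521 to 0.102). Col27a1, a fibrillar collagen known mainly from cartilage, went the other way. It had 131, 99.4 and 58.0 CPM in anti-G-CSFR kidneys, 59.4, 68.3 and 132 CPM in anti-C5 kidneys, 36.3, 21.6 and 20.4 CPM in isotype kidneys and 174, 96.2 and 85.3 CPM in sham kidneys. Isotype kidneys were below all others, and Col27a1 fell by 2.18 ± 0.402, or 4.54-fold (edgeR adjusted p = 0.000627).

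Genes of elastic fibres and cross-linking enzymes rose in 5 of 5 cases in isotype against sham, where 32.1% of all genes were called higher. Lox (Entrez 16948, chromosome 18, 52516067 to 52529867) encodes lysyl oxidase, which cross-links collagen and elastin. It had 2.31, 2.46 and 6.13 CPM in anti-G-CSFR kidneys, 2.26, 5.64 and 1.86 CPM in anti-C5 kidneys, 12.9, 35.7 and 35.0 CPM in isotype kidneys and 3.62, 3.24 and 2.26 CPM in sham kidneys. The mean of kidneys 5 and 6 was 2.73 times the level of kidney 4, which still stood above every kidney of the other groups. Lox rose by 3.19 ± 0.507, a 9.16-fold difference (edgeR adjusted p = 0.000227). Fbn1, the fibrillin of microfibrils, had 9.58, 10.4 and 24.7 CPM in anti-G-CSFR kidneys, 13.4, 25.6 and 8.66 CPM in anti-C5 kidneys, 52.2, 53.3 and 52.0 CPM in isotype kidneys and 18.0, 14.2 and 11.2 CPM in sham kidneys, and rose by 1.86 ± 0.389 (edgeR adjusted p = 0.00143). Loxl2, Loxl1 and Eln rose by 1.69, 1.62 and 1.25.

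**Figure D4:**
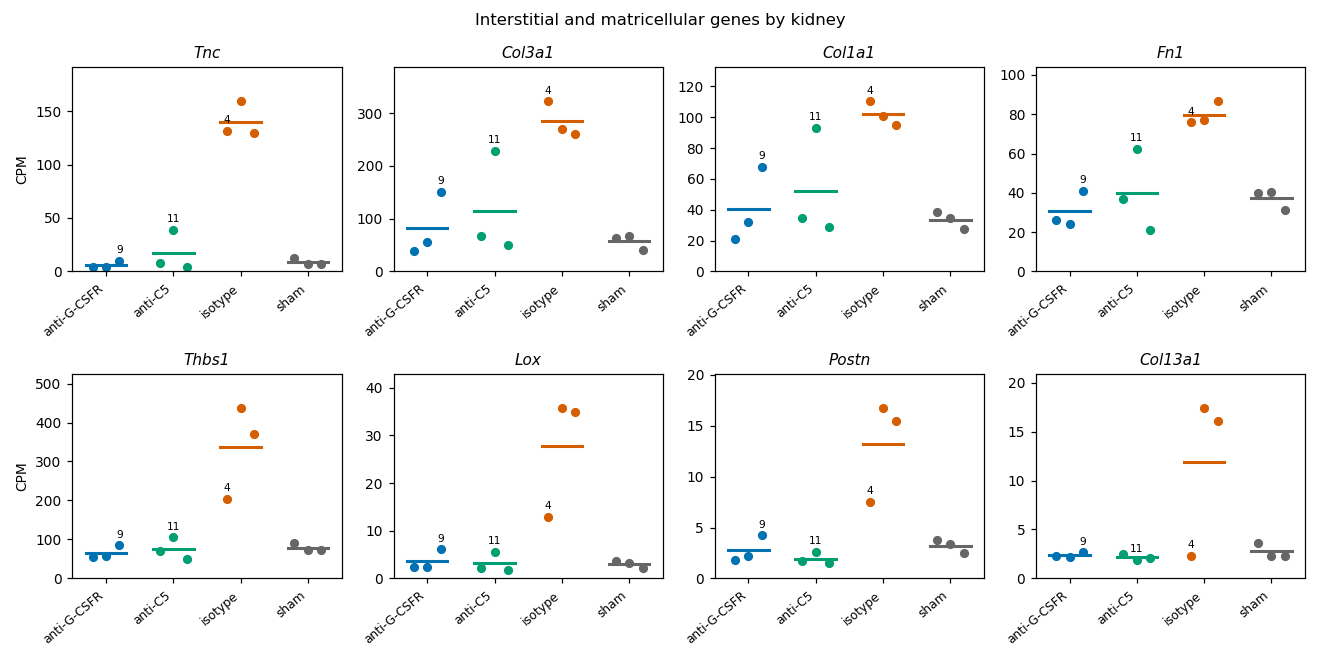
CPM of 8 interstitial and matricellular genes in each kidney, by group (points, 1 kidney each; lines, group means; kidneys 4, 9 and 11 numbered). Isotype kidneys are highest except for Col13a1, where kidney 4 lies just below the sham kidneys, and kidney 11 lies near the isotype kidneys for Col1a1 and Col3a1.

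Collagen VI, a beaded filament next to many cells, and the proteoglycans changed less. Col6a1 had 19.0, 20.7 and 29.2 CPM in anti-G-CSFR kidneys, 22.4, 28.4 and 19.3 CPM in anti-C5 kidneys, 31.9, 41.5 and 40.3 CPM in isotype kidneys and 28.9, 24.7 and 24.7 CPM in sham kidneys. The rise of Col6a1 by 0.54 ± 0.180 passed the test (edgeR adjusted p = 0.0203), and so did those of Col6a2 and Col6a3 at 0.66 and 0.95. Each of these 3 calls was lost without certain single kidneys, that of Col6a1 without kidney 2, 3, 5 or 6 (adjusted p = 0.0612 to 0.0698), that of Col6a2 without kidney 1, 2, 3, 5 or 6 (0.0587 to 0.105) and that of Col6a3 without kidney 2, 3 or 4 (0.106 to 0.118). Bgn, biglycan, had 116, 122 and 218 CPM in anti-G-CSFR kidneys, 152, 208 and 125 CPM in anti-C5 kidneys, 266, 284 and 251 CPM in isotype kidneys and 169.6, 166 and 139 CPM in sham kidneys. It rose by 0.76 ± 0.236 (edgeR adjusted p = 0.0147); leaving out kidney 3 ended that call (adjusted p = 0.0584). Vcan, versican, rose by 0.99 ± 0.340 (adjusted p = 0.0231); leaving out kidney 2, 5 or 6 ended that call (adjusted p = 0.0565 to 0.0917). Dcn, decorin, averaged 34.7 ± 8.97 CPM in isotype kidneys and 35.7 ± 7.56 CPM in sham kidneys (SD, n = 3 each), with a 95% interval of the log2 difference from −0.53 to 0.44.

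Of the 11 remaining collagens 6 rose, 3 fell and 2 were not called in isotype against sham. Of all genes, 32.1% were called higher and 30.7% lower. Col18a1, a basement membrane collagen whose end fragment is endostatin, had 178, 178 and 283 CPM in anti-G-CSFR kidneys, 203, 331 and 164 CPM in anti-C5 kidneys, 572, 586 and 603 CPM in isotype kidneys and 265, 229 and 211 CPM in sham kidneys. Isotype kidneys were far above the rest, and Col18a1 rose by 1.32 ± 0.246 (edgeR adjusted p = 0.000655). Its relative Col15a1 rose by 1.36, the fibril-associated Col12a1 by 1.76, the vessel collagen Col8a1 by 1.63 and the anchoring fibril collagen Col7a1 by 1.15. Col7a1 had 2.83 to 3.76 CPM in isotype kidneys and at most 1.75 CPM in any other kidney. The third-highest CPM of every gene in the table is at least 2.01, so Col7a1 seems to have a row only through the isotype kidneys. Its rise and its falls under both antibodies were thus favoured in advance, and the counts of calls include them. The transmembrane collagens diverged. Col13a1 had 2.28, 17.4 and 16.1 CPM in isotype kidneys against 3.62, 2.34 and 2.33 CPM in sham kidneys, so that kidney 4 lay below all sham kidneys; its change of 2.10 ± 0.545 was called by edgeR (adjusted p = 0.00533) and not by limma-voom (adjusted p = 0.0944).

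Col23a1, another transmembrane collagen, stood at 4.23, 2.76 and 3.33 CPM in anti-G-CSFR kidneys, 3.60, 2.89 and 4.02 CPM in anti-C5 kidneys, 1.39, 1.04 and 1.40 CPM in isotype kidneys and 4.69, 4.87 and 5.69 CPM in sham kidneys. It fell by 1.98 ± 0.231 in isotype against sham (edgeR adjusted p = 2.81e-05), and the sham kidneys were above every kidney of the other 3 groups. Col26a1, a secreted collagen of low level here, had 3.63, 3.43 and 2.80 CPM in anti-G-CSFR kidneys, 3.10, 2.31 and 3.63 CPM in anti-C5 kidneys, 1.44, 0.676 and 0.956 CPM in isotype kidneys and 3.95, 3.05 and 2.95 CPM in sham kidneys. It fell by 1.68 ± 0.293 (edgeR adjusted p = 0.000437), and the fibril-associated Col14a1 fell by 0.97 ± 0.204 (adjusted p = 0.00145). Col20a1 and Col16a1 were not called, at 0.57 and 0.55 (adjusted p = 0.0682 and 0.0929). Scaled to library totals, both were called (edgeR adjusted p = 0.0201 and 0.0397).

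The order of levels within the matrix differed between groups. Per kilobase of exon, sham kidneys held most Sparc (55.3 ± 10.0 CPM per kb, SD, n = 3), then Col4a1 (45.8 ± 2.90), Col4a3 (37.7 ± 3.66), Col18a1 (33.5 ± 3.90), Col4a2 (29.7 ± 2.54), Col4a4 (27.5 ± 3.09) and Bgn (25.9 ± 2.78). Sparc and Col4a1 differed by less than the SD of Sparc, and so did Col18a1 and Col4a2, Col4a2 and Col4a4, and Col4a4 and Bgn by the SD of the more variable gene of each pair. Isotype kidneys held as much Col4a1 (162 ± 28.5 CPM per kb) as Sparc (162 ± 4.69), followed by Col4a2 (108 ± 23.1), Col18a1 (83.6 ± 2.19), Thbs1 (55.5 ± 19.8) and Bgn (43.7 ± 2.71), and no Alport chain was among the leading 12 genes.

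The starts of 4 genes are shown, a pair with steep rises whose upstream windows hold the letters TATAAA and a pair with steep falls whose windows do not. Capitals mark TATAAA, the letters of a TATA box, and the letters of a TEAD site (GGAATG, or CATTCC read on the other strand). Each sequence is the 250 bases before the RefSeq start, 5′ to 3′ on the gene's strand (RefSeq, GRCm38.p6). They lie at chr4:64047016-64047265 on the minus strand (Tnc), chr1:45311288-45311537 on the plus strand (Col3a1), chr4:63215162-63215411 on the plus strand (Col27a1, inside the longer GENCODE gene) and chr11:51289670-51289919 on the plus strand (Col23a1).
Tnc: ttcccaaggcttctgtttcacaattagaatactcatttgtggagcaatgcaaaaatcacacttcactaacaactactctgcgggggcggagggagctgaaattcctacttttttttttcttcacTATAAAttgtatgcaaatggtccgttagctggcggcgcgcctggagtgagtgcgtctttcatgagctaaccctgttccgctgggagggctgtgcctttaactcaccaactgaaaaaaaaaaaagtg
Col3a1: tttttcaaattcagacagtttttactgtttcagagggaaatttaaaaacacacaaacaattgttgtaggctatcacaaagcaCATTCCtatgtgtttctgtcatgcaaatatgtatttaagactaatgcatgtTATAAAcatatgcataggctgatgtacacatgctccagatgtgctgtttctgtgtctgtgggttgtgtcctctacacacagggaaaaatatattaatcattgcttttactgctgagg
Col27a1: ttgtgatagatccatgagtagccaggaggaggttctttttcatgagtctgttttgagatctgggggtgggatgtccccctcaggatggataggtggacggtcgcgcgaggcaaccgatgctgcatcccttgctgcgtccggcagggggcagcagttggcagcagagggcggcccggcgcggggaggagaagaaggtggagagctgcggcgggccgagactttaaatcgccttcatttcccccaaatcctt
Col23a1: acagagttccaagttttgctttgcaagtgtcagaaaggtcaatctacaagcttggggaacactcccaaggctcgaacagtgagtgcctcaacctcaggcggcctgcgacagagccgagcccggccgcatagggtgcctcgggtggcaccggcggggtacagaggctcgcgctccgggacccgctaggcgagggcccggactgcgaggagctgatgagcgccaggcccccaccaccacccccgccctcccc

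The TATAAA match begins at base −126 before the start of Tnc and at −117 before that of Col3a1, where the CATTCC match begins at −168. Neither TATAAA match was shown to act as the TATA box of its gene. A RefSeq window was at hand for 35 of the 55 genes, with 41 windows in all. On either strand TATAAA was found in 5 of the 41 windows (12.2%), those of Col13a1, Col3a1, Postn and Tnc, and in 12.4% of all 32851 mouse windows. It was in 5 of the 32 windows of genes that rose in isotype against sham. Genes that fell had only 4 windows, and it was in 0 of them. GGAATG was found in 6 windows against 12.6% of all, CCAAT in 11 against 33.8%, and the AP-1 motif TGANTCA in 1 (Col6a1) against 6.75%. These are matches of letters in a window and no more.

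In anti-G-CSFR kidneys against isotype kidneys, the question was how the matrix response differed when G-CSFR was blocked before the injury. This comparison shares the isotype kidneys with the comparison of isotype with sham, so the directions of both are not independent. Of the 55 genes 42 fell and 9 rose (edgeR adjusted p below 0.05), where 63.5% of all genes were called, 32.0% lower and 31.5% higher. The median log2 change was −1.14 over the 55 genes and −0.02 over all genes.

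The largest difference was that of Tnc, with 6.14 ± 3.40 CPM in anti-G-CSFR kidneys and 140 ± 16.5 CPM in isotype kidneys (SD, n = 3 each), a log2 change of −4.52 ± 0.704 or 22.8-fold lower (edgeR adjusted p = 0.000217). Lox followed at −2.94 ± 0.502 (adjusted p = 0.000375), Thbs1 at −2.36 ± 0.313 (7.08e-05) and Lamb3 at −2.32 ± 0.344 (0.000151). These 4 genes were chosen among those without overlap between the groups. Col13a1, whose groups overlapped, changed by −2.32 (edgeR adjusted p = 0.00339) and was not called by limma-voom (adjusted p = 0.0799). Among basement membrane genes Col4a1 fell by 1.95 ± 0.313, Col4a2 by 1.96 ± 0.330, Lamc1 by 1.63 ± 0.211 and Nid1 by 1.69 ± 0.267. The genes that rose were led by Col27a1 at 1.88 ± 0.400 (edgeR adjusted p = 0.00160), Col26a1 at 1.66 ± 0.295 (0.000483), Col23a1 at 1.42 ± 0.235 (0.000308) and Col4a3 at 1.13 ± 0.161 (0.000115).

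Some genes that were not called in isotype against sham were called lower under anti-G-CSFR than under isotype. Lamb1 averaged 137 ± 20.8 CPM in anti-G-CSFR kidneys and 209 ± 9.70 CPM in isotype kidneys (SD, n = 3 each; −0.61 ± 0.155, edgeR adjusted p = 0.00479). Lamb2, Lama4, Col20a1 and Nid2 fell by 0.55, 0.40, 0.68 and 0.46. Scaled to library totals, Lamb2, Lama4 and Col20a1 were also called higher in isotype against sham (edgeR adjusted p = 0.0340, 0.0191 and 0.0201). Col16a1, Col4a6, Dcn and Lama3 were not called. In 4 other settings Col16a1 was called lower: library totals, limma-voom with sample weights, without kidney 9, and without kidneys 9 and 11. The adjusted p of these fits was 0.0170 to 0.0495. Scaled to library totals, the log2 changes of Col14a1, Col4a5 and Lamc3, which rose by 0.69, 0.37 and 0.55, were 0.49, 0.16 and 0.34 and were not called (edgeR adjusted p = 0.0746, 0.333 and 0.207). Leaving out any 1 of the 12 libraries kept 42 of the 51 calls. The 9 that were lost in at least 1 such fit were Col1a1, Col3a1, Col6a3, Vcan, Col20a1, Col4a5, Lama4, Lamc3 and Nid2; those of Col1a1 (−1.35 ± 0.444, adjusted p = 0.0193) and Col3a1 (−1.79 ± 0.568, adjusted p = 0.0160) were lost without kidney 4, 7 or 8 (adjusted p = 0.0553 to 0.0734 and 0.0512 to 0.0630).

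**Figure D5:**
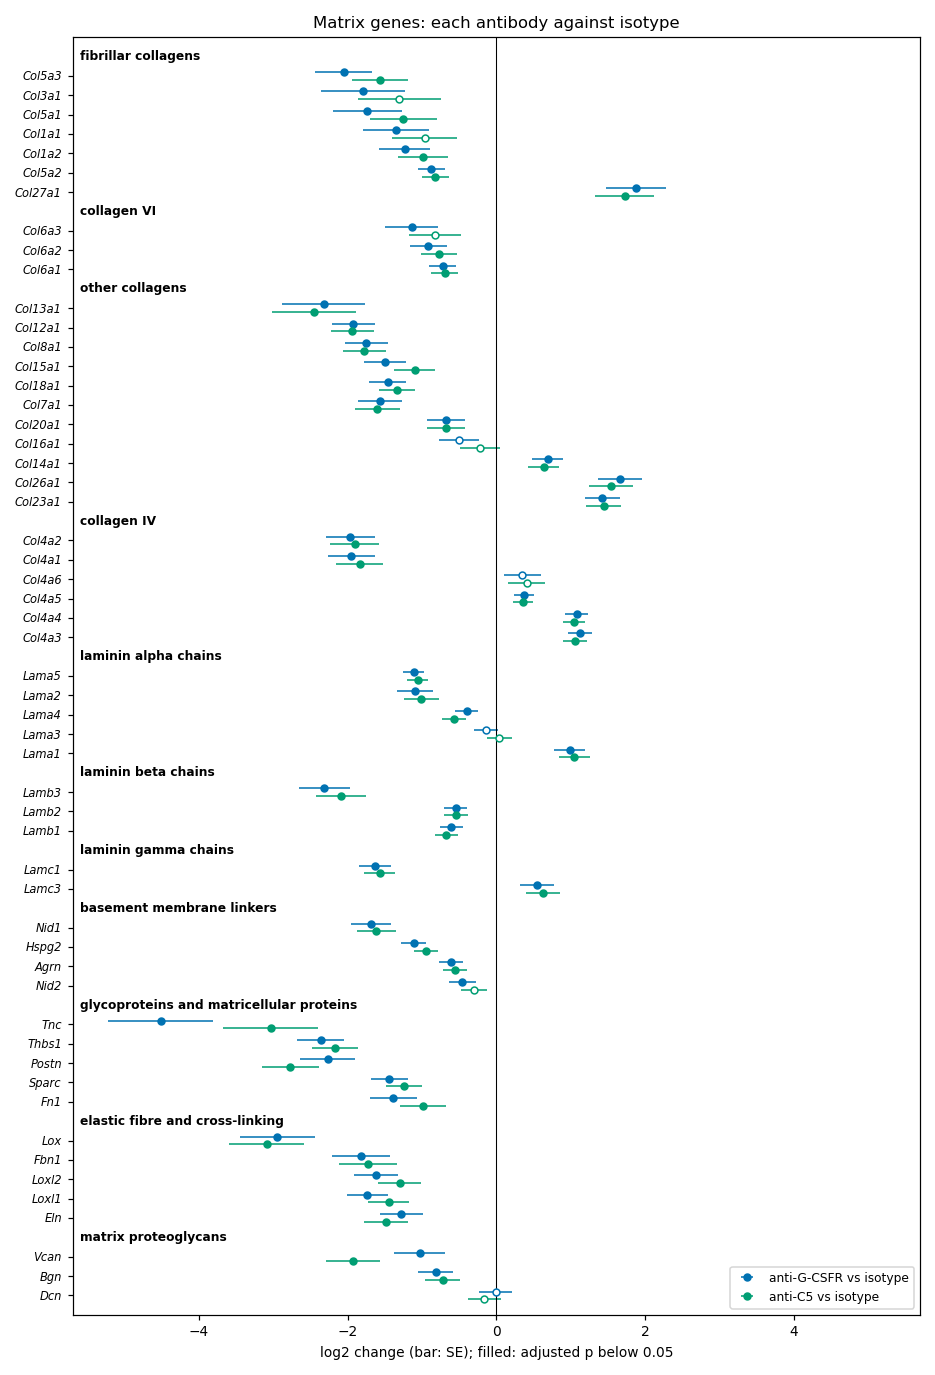
Log2 change of 54 of the 55 matrix genes in anti-G-CSFR against isotype and in anti-C5 against isotype kidneys (points, edgeR; bars, SE; 3 kidneys a group; both share the isotype kidneys), sorted by role, with filled points for an adjusted p below 0.05. Most points lie left of 0 in both comparisons, and Col1a1, Col3a1, Col6a3 and Nid2 are filled under anti-G-CSFR and open under anti-C5.

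Under anti-C5 the same question was asked of blocking complement C5. Of the 55 genes 38 fell and 9 rose against isotype (edgeR adjusted p below 0.05), with 60.3% of all genes called, 29.8% lower and 30.5% higher. The median log2 change was −0.99 over the 55 genes and −0.01 over all genes. Among genes without overlap between the groups, Lox fell most, by 3.09 ± 0.507 (edgeR adjusted p = 0.000352). Tnc followed at −3.04 ± 0.641 (0.00176), Postn at −2.78 ± 0.383 (0.000119) and Thbs1 at −2.16 ± 0.310 (0.000152). Col13a1, whose groups overlapped, changed by −2.45 (edgeR adjusted p = 0.00289) and was not called by limma-voom (adjusted p = 0.0739). Tnc averaged 17.0 ± 19.1 CPM in anti-C5 kidneys, with kidney 11 at 39.0 CPM. Col4a1 fell by 1.84 ± 0.312 and Lamc1 by 1.57 ± 0.211 (edgeR adjusted p = 0.000438 and 0.000102). Col27a1 rose by 1.72 ± 0.398 (adjusted p = 0.00299), Col26a1 by 1.54 ± 0.296, Col23a1 by 1.45 ± 0.236 and Col4a3 by 1.05 ± 0.160. Scaled to library totals, the rises of Col14a1, Col4a5 and Lamc3 were 0.46, 0.18 and 0.45. They were not called there (edgeR adjusted p = 0.0942, 0.290 and 0.104).

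Of the 8 genes not called under anti-C5, Col1a1, Col3a1 and Col6a3 had been called in both other comparisons with isotype kidneys. The remaining ones were Nid2, Col16a1, Col4a6, Dcn and Lama3. Nid2 was called lower with library totals and without kidney 4 (edgeR adjusted p = 0.0437 and 0.0200). It was also called by limma-voom with sample weights (adjusted p = 0.0250). Col1a1, Col3a1 and Col6a3 had log2 changes of −0.96 ± 0.439, −1.30 ± 0.560 and −0.83 ± 0.352 (edgeR adjusted p = 0.0757, 0.0617 and 0.0594). Without kidney 11 they passed at −1.68, −2.29 and −1.31 (adjusted p = 0.00241, 0.00157 and 0.00433), and all passed without kidney 9 too (adjusted p = 0.0395, 0.0314 and 0.0428). Col3a1 also passed without kidney 7, with an unchanged log2 change of −1.30. By limma-voom, Col1a1, Col3a1 and Col6a3 were also called, at −1.16, −1.63 and −0.93 (adjusted p = 0.0330, 0.0297 and 0.0285), and without both kidneys 9 and 11 they were called at −1.66, −2.27 and −1.30. Kidney 11 held 2.69 times as much Col1a1 RNA and 3.44 times as much Col3a1 RNA as the higher of kidneys 10 and 12. Leaving out any 1 library kept 37 of the 47 calls; lost in at least 1 such fit were Col1a2, Col5a1, Col6a2, Bgn, Fn1, Col14a1, Col20a1, Col4a5, Lamb2 and Lamc3. The call of Fn1 (−0.99 ± 0.309, adjusted p = 0.0158) was lost without kidney 10 (adjusted p = 0.0532), and that of Bgn (−0.72 ± 0.236, adjusted p = 0.0198) without kidney 5, 10 or 12 (adjusted p = 0.0558 to 0.0810).

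Among the 46 genes called in isotype against sham, each antibody-treated kidney was compared with the nearest isotype kidney. The same isotype kidneys had selected these genes, so low counts were favoured in advance. Kidneys 7 and 8 reached it for no gene. Kidney 9 reached it for Col13a1 alone, kidney 10 for Col13a1, kidney 11 for Col6a3 and kidney 12 for Col4a5. Kidney 9 was the highest of its group for 46 of the 55 genes and kidney 11 of its group for 37. The same counts were not made over all genes, so they do not mark a trait of the matrix. Over all genes, chi-square of counts per degree of freedom was 47.4 and 33.7 for kidney 9 against kidneys 7 and 8, which gave 14.1 between them. It was 53.7 and 65.3 for kidney 11 against kidneys 10 and 12, which gave 23.6. Kidney 11 held 4.81 times as much Tnc RNA as the higher of kidneys 10 and 12, and kidney 9 held 2.59 times as much Col5a1 RNA as the higher of kidneys 7 and 8. These are also the kidneys with the most injured tubule marker RNA in their groups, and kidney 11 held 123 CPM of neutrophil markers, against 8.25 and 13.6 CPM in kidneys 10 and 12; the part of either in the matrix levels was not tested.

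No matrix gene was called between the 2 antibodies. In anti-G-CSFR against anti-C5 kidneys edgeR called 0 of the 55 genes and 0 of all genes (0.0%). At an unadjusted p below 0.05 edgeR gave 1 matrix gene and 207 of all genes (1.58%), and DESeq2 called 2 genes in all, none of them in the matrix group. The widest differences were those of Tnc at −1.48 ± 0.678 (95% interval −2.96 to 0.00) and of Vcan at 0.89 ± 0.376 (0.07 to 1.71, unadjusted p = 0.0353). Without kidney 11 the difference of Tnc was 0.01. These intervals do not show that the antibodies act alike.

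Matrix levels under either antibody were set against sham kidneys, which shows how near the treated IRI kidneys came to the operated controls. In anti-G-CSFR against sham edgeR called 0 of the 55 genes, with 0.0% of all genes called, 4 matrix genes and 778 of all genes (5.93%) at an unadjusted p below 0.05 and 9 genes in all by DESeq2. In anti-C5 against sham it also called 0, again with 0.0% of all genes, 5 matrix genes and 1487 of all genes (11.3%) at an unadjusted p below 0.05 and 28 genes in all by DESeq2; no matrix gene was among the DESeq2 calls of either comparison. The genes with the smallest unadjusted p lay below sham. Col4a3 averaged 266 ± 37.1 CPM in anti-G-CSFR kidneys and 252 ± 48.1 CPM in anti-C5 kidneys, against 376 ± 36.4 CPM in sham kidneys (SD, n = 3 each), and no antibody-treated kidney overlapped with sham. Its log2 difference from sham was −0.50 ± 0.159 under anti-G-CSFR (95% interval −0.84 to −0.15, edgeR adjusted p = 0.800), where limma-voom with sample weights called it at an adjusted p of 0.0425. Col3a1 differed from sham by 0.51 (95% interval −0.71 to 1.73) under anti-G-CSFR and by 1.00 (−0.23 to 2.23) under anti-C5.

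Genes that make, cut and sense the matrix were counted in the same fits. Of 27 measured genes for collagen folding, trimming and cross-linking, 15 rose and 4 fell in isotype against sham (70.4% called, against 62.8% of all genes). Their median log2 change was 0.63, against 0.03 over all genes. Under anti-G-CSFR against isotype 15 fell and 4 rose (70.4% called, against 63.5% of all genes). Under anti-C5 against isotype 13 fell and 4 rose (63.0% called, near the 60.3% of all genes). P3h2, a prolyl 3-hydroxylase that acts on collagen IV, had 100.1 ± 13.6 CPM in anti-G-CSFR kidneys, 96.2 ± 17.5 CPM in anti-C5 kidneys, 32.8 ± 1.94 CPM in isotype kidneys and 118 ± 4.96 CPM in sham kidneys (SD, n = 3 each). It fell by 1.85 ± 0.140 in isotype against sham, the opposite direction to most called genes of this list. Of 28 matrix-degrading enzymes and inhibitors, 12 rose and 3 fell in isotype against sham, and the 53.6% called was below the 62.8% of all genes. Their summed level was lower in isotype kidneys (2847 to 3064 CPM) than in sham kidneys (3077 to 3625 CPM). Plat, tissue plasminogen activator, rose by 1.64 ± 0.192 and the proteoglycan-cutting Adamts15 fell by 1.92 ± 0.181. Of 28 integrins and other matrix receptors, 14 rose and 6 fell (71.4% called), with Itgb8 and Sdc2 down by 1.11 and 1.25.

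The TGF-beta pathway, the best known inducer of collagen genes, was counted from 25 genes. Of these 18 rose and 1 fell in isotype against sham (median 0.69), 21 fell and none rose under anti-G-CSFR, and 18 fell and none rose under anti-C5, each against isotype. Over all genes, 62.8%, 63.5% and 60.3% were called in these comparisons. Lrrc32, which anchors latent TGF-beta on cells, had 18.1 ± 3.46 CPM in anti-G-CSFR kidneys, 18.8 ± 9.16 CPM in anti-C5 kidneys, 94.6 ± 9.21 CPM in isotype kidneys and 18.7 ± 4.03 CPM in sham kidneys, with a rise of 2.34 ± 0.278 in isotype against sham (edgeR adjusted p = 3.25e-05). Tgif1, a repressor of TGF-beta signalling, rose by 2.02 ± 0.249.

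Markers of cell types were counted in the same fits. Summed levels of 18 fibroblast, pericyte and smooth muscle markers were 505 to 765 CPM in anti-G-CSFR kidneys, 531 to 759 in anti-C5 kidneys, 1244 to 2395 in isotype kidneys and 604 to 769 in sham kidneys. In isotype against sham 8 of them rose and 4 fell (66.7% called, against 62.8% of all genes; median 0.46), led by the contractile genes Acta2 at 2.83 ± 0.328 and Tagln at 3.43 ± 0.359. Of 14 endothelial markers 5 rose and 1 fell (42.9% called), and summed levels were 655 to 816 CPM under anti-G-CSFR, 746 to 781 under anti-C5, 797 to 1085 under isotype and 741 to 822 in sham kidneys. All 13 injured tubule markers rose, with sums of 35087 to 40463 CPM in isotype kidneys and 1690 to 2660 CPM in sham kidneys, and all 15 proximal tubule markers fell, with sums of 12576 to 19761 CPM in isotype kidneys and 44274 to 49825 CPM in sham kidneys. Of 8 measured neutrophil markers 8 rose, with sums of 42.9 to 117 CPM in isotype kidneys and 8.01 to 10.6 CPM in sham kidneys, and of 13 macrophage markers 3 rose and 1 fell (30.8% called). Of 9 platelet markers 2 were measured, Pf4, which rose, and Itga2b, which fell. The part of any of these lists in the matrix results was not tested.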

How the data were processed

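RNA of 12 whole mouse kidneys, 3 in each of 4 groups, was sequenced in 100 base single-end reads. The deposited values are raw read counts per gene; per the submitters' processing notes the tools were TopHat2 2.1.0, Bowtie2 2.2.5 and featureCounts on GRCm38.p4, and no source used here gives the strand setting of the counting. The table of 13124 genes seems to have been filtered on low counts before it was deposited, since the third-highest CPM of every gene is at least 2.01. Genes without a symbol in RefSeq (50 of them) held 0.0811% of the counts. Totals of 13200930 to 16324215 counts set the precision, and nothing in the labels says whether the kidneys of a group are more than separate samples, so p-values measure the spread between these samples.

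All 12 libraries entered 1 edgeR 4.0.16 quasi-likelihood fit (R 4.3.3, robust, TMM factors, 8 residual degrees of freedom), with Benjamini-Hochberg adjustment over all 13124 genes and a threshold of 0.05. The SE is the log2 change over the root of its F statistic. The fit was also run on simulated counts in which few genes were changed, so that run does not show how it performs where most genes change. Coordinates and exon lengths are from GENCODE vM21 (GRCm38). Values in every kidney are given for the 4 largest called rises and falls of each comparison without overlap, the highest gene of each role and 8 genes set by name. The alternatives were DESeq2 1.42.0, limma 3.58.1 voom with and without sample weights, other scalings, a filter of 5 CPM in 3 libraries, a fit without the robust option, the 6 compared libraries alone, each library left out, and kidneys 9 and 11 left out. The members and gene lists were chosen with earlier results of these data known. The values of 1 member are not reported here, though the counts over all members include it.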

Additional observations from a re-analysis of the deposited data

How the results depend on the processing

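No paired analysis was possible because no kidney number is shared between groups. Under the settings that kept all libraries, or left out kidneys 9 and 11, 42 to 50 matrix genes were called for isotype over sham, 46 to 51 for anti-G-CSFR over isotype and 42 to 51 for anti-C5 over isotype. Leaving out each library gave 40 to 47, 43 to 51 and 39 to 49 calls, and 0 in each of the other 3 comparisons. For anti-G-CSFR over sham, limma-voom with sample weights called 1 matrix gene, Col4a3. Scaling to library totals set the median over all genes to a log2 change of 0.23, −0.23 and −0.19 in the first 3 comparisons. Each log2 change that turned sign belonged to a gene that was not called in its comparison. Scaled to library totals, the log2 change was 0.15 for Dcn (isotype over sham) and −0.13 for Lama3 (anti-C5 over isotype). By limma-voom with sample weights, the log2 change was 0.17 for Dcn (isotype over sham), −0.0106 for Col4a3 (anti-G-CSFR over anti-C5) and −0.0557 for Col1a1 (anti-G-CSFR over sham). With the filter of 5 CPM in 3 libraries, the log2 change was 0.00183 for Dcn (anti-G-CSFR over isotype). By limma-voom, the log2 change was 0.00727 for Dcn (anti-G-CSFR over isotype). Without kidneys 9 and 11, the log2 change was 0.0325 for Dcn (anti-C5 over isotype), −0.34 for Col1a1 (anti-G-CSFR over sham), −0.26 for Col3a1 (anti-G-CSFR over sham), −0.0718 for Col1a1 (anti-C5 over sham) and −0.53 for Tnc (anti-C5 over sham). Without single libraries, isotype over sham ranged from −0.28 to 0.11 for Dcn and −0.0145 to 0.26 for Nid2. Without single libraries, anti-G-CSFR over isotype ranged from −0.12 to 0.22 for Dcn. Without single libraries, anti-C5 over isotype ranged from −0.49 to 0.0821 for Col16a1, −0.28 to 0.0699 for Dcn and −0.14 to 0.22 for Lama3. Without single libraries, anti-G-CSFR over anti-C5 ranged from −0.98 to 0.33 for Col1a1, −0.20 to 0.11 for Col23a1, −1.26 to 0.50 for Col3a1, −0.0526 to 0.22 for Col4a3, −0.84 to 0.20 for Col5a3 and −2.02 to 0.00650 for Tnc. Without single libraries, anti-G-CSFR over sham ranged from −0.34 to 0.57 for Col1a1, −0.26 to 0.85 for Col3a1 and −0.42 to 0.20 for Vcan. Without single libraries, anti-C5 over sham ranged from −0.0782 to 0.93 for Col1a1 and −0.53 to 1.42 for Tnc. The cause of these reversals was not tested.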

Other observations

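The levels of each collagen IV gene pair were also set against each other in single kidneys. Col4a1 over Col4a2, in CPM per kb of exon, was 1.53, 1.49 and 1.52 in anti-G-CSFR kidneys, 1.53, 1.54 and 1.68 in anti-C5 kidneys, 1.58, 1.44 and 1.50 in isotype kidneys and 1.47, 1.67 and 1.49 in sham kidneys. Col4a3 over Col4a4, on the same scale, was 1.35, 1.23 and 1.22 in anti-G-CSFR kidneys, 1.17, 1.18 and 1.37 in anti-C5 kidneys, 1.10, 1.27 and 1.31 in isotype kidneys and 1.41, 1.45 and 1.26 in sham kidneys. The groups overlapped in both proportions.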
